A study of Mus musculus with 18 samples.

Results

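The epidermal growth factor (EGF) receptor genes *Egfr*, *Erbb2*, *Erbb3* and *Erbb4*, the sheddase gene *Adam17* and the feedback inhibitor genes *Errfi1*, *Spry1*, *Spred1* and *Spred2* were followed through the cell clusters of the mouse stomach. The 9 genes were chosen by name, as receptor partners and inhibitors of the pathway, out of 31201 gene names in the counts. Stomach cells of male C57BL/6J wild-type mice aged 10 weeks were profiled with Quartz-Seq2, in which single cells are sorted into the wells of a plate and each molecule carries a unique molecular identifier (UMI). In dataset 1, gland units of the corpus, where acid is made, and of the more distal antrum were combined and sorted as pools tube1 and tube2 into 6 plates. In dataset 2, corpus units alone were sorted as pools K and T into 12 plates. A pool combined 3 mice, the pools of a dataset were prepared by different operators, no treatment was given, and dead cells were gated out with TO-PRO-3 according to the sample labels (Hoechst33342-positive cells in dataset 2), whereas the published methods name propidium iodide for dataset 1. The authors kept 491 cells of dataset 1 and 3993 of dataset 2. All levels given here are CPM, the UMI counts of a sum scaled to its total after adjustment by edgeR's TMM factor, of the summed cells of a type in a pool, so n = 2 pools in each dataset, and pools are given in the order tube1 then tube2, or K then T.

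Ligands of the EGF family are made as membrane-anchored precursors, and ADAM17 cuts several of them free. The freed ligand joins EGFR to itself or to another receptor of the family, and the receptor then recruits adaptors that pass the signal on to the kinase ERK. ERBB2 has no known ligand and works as a partner, ERBB3 has a weak kinase and signals through its partners, and ERBB4 binds neuregulins and some EGF ligands. ERRFI1 (also called MIG6) binds the kinase domain of the receptors and blocks it, while the Sprouty protein SPRY1 and the Spred proteins SPRED1 and SPRED2 dampen the path to ERK. *Errfi1* and *Spry1* are themselves induced by the pathway in many cells. In the corpus, dividing isthmus cells give rise to pit cells, which line the surface with mucus, and to neck cells, which make another mucus deeper in the gland.

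The stretch of 250 bases before the RefSeq transcript start is shown for the 3 genes on which the corpus results turn, *Errfi1*, *Spry1* and *Egfr* (RefSeq, GRCm38.p6, read 5′ to 3′ on the strand of the gene). Each is printed in lower case, with the letters of a searched motif in capitals. The *Errfi1* stretch is chr4:150854820-150855069, that of *Spry1* is chr3:37639697-37639946 and that of *Egfr* is chr11:16751953-16752202, all on the plus strand.
Errfi1: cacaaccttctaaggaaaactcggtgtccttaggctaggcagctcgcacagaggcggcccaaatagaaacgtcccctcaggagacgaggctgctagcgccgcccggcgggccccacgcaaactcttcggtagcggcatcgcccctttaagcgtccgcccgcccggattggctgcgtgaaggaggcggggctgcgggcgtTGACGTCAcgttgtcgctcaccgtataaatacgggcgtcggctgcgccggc
Spry1: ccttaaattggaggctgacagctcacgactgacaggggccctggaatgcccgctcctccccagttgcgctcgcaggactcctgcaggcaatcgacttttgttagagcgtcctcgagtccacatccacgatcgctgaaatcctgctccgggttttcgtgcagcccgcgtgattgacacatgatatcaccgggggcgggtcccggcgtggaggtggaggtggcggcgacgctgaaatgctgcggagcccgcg
Egfr: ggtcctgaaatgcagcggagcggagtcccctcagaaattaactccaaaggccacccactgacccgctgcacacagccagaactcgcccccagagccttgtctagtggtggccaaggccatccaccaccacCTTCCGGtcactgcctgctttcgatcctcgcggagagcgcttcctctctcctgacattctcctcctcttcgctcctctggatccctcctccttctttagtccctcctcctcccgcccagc
Motifs were searched on both strands in 32851 mouse promoters of this length. The capitals in *Errfi1* are the cAMP response element TGACGTCA, which lies 51 to 44 bases before the start and is held by 1.55% of these promoters, while the second RefSeq start of *Errfi1* has no such letters in its window. The capitals in *Egfr* are the ETS motif CCGGAAG on the reverse strand, 120 to 114 bases before the start, and 6.91% of the promoters hold it. *Adam17* holds the ETS motif as well, also on the reverse strand, 31 to 25 bases before its start. The AP-1 motif TGAGTCA (4.46% of promoters) and the serum response element (1.47%) were found in none of the 9 windows available for 8 of the genes, and the *Spry1* window held none of the 4 motifs. A match of letters describes these windows only. In GRCm39, the build of the counts, *Egfr* spans chr11:16702198-16868158 on the plus strand, *Erbb2* chr11:98303203-98328542 on the plus strand and *Erbb3* chr10:128403392-128425811 on the minus strand. *Errfi1* spans chr4:150938376-150955402 and *Spry1* chr3:37693897-37698755, both on the plus strand, and all 9 are annotated as protein-coding genes.

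Kept cells carried a median of 38757 UMIs in dataset 1 and 31020 in dataset 2, and the kept cells of a plate summed to between 2551126 and 4773020 UMIs in dataset 1 and between 10463555 and 12745419 in dataset 2. All 384 well barcodes occur on every plate, cells were sorted singly, and no doublet caller was run. Cluster numbers and cell type names are those of the study, except names ending in -like, which were given here by markers. Isthmus-like cells of dataset 1 are cluster 4-15, highest in the 5 isthmus markers among clusters not already assigned a type. The clusters were made from the same counts, so the clustering enters each p-value between clusters. Of the 5 isthmus clusters of dataset 2, clusters 3, 5, 6 and 9 reached summed levels of the 5 isthmus markers (*Mki67*, *Stmn1*, *Hmgb2*, *Tcf19* and *Iqgap3*) between 332 and 1284 CPM per pool. Cluster 11 (179 cells) stood at 74.3 CPM in pool K and 114 CPM in pool T, none of the 5 markers was 5-fold over the median cluster there, and its leading genes were *Cym*, *Chil4* and *Krt5*. The comparisons of isthmus with pit, neck and parietal cells were repeated without it, and the mucin classes of isthmus cells include it. A list of 14 genes that respond to tissue dissociation (such as *Fos*, *Atf3* and *Hspa1a*) summed to 4880 and 8107 CPM in isthmus cells, 1374 and 1929 CPM in pre-pit cells, 2012 and 2158 CPM in mature pit cells, and 5574 and 14182 CPM in neck cells. In neck cells it was highest in cluster 0, at 20306 and 23673 CPM, against 1252 to 4289 CPM in the other neck clusters. Summed stromal, smooth muscle, T cell and macrophage markers stayed at or below 12.8 CPM in every epithelial type of both datasets. Endothelial markers stayed at or below 3.18 CPM apart from parietal cells, where they reached 52.6 to 75.0 CPM, with *Cdh5* and *Kdr* at 0 in 3 of the 4 sums.

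*Egfr* and *Erbb2* were higher in pre-pit and mature pit cells of the corpus than in isthmus cells, and *Erbb3* in mature pit cells. *Spry1* was lower in both, *Errfi1* in pre-pit cells and *Spred1* in mature pit cells. *Egfr* stood at 22.6 and 20.1 CPM in the isthmus cells of pools K and T, at 27.6 and 28.9 CPM in pre-pit cells, and at 27.3 and 28.2 CPM in mature pit cells. Both pools of pre-pit and of mature pit cells lay above both isthmus pools. *Egfr* was 1.33-fold higher in pre-pit than in isthmus cells (log2 fold change 0.41 ± 0.11 SE, edgeR adjusted p = 0.0162). In mature pit cells it was 1.30-fold higher than in isthmus cells (0.38 ± 0.13, edgeR adjusted p = 0.0351). With no filter on low counts neither call of *Egfr* held (0.34, edgeR adjusted p = 0.115, and 0.29, edgeR adjusted p = 0.283). Without cluster 11 both held (0.46, edgeR adjusted p = 0.00771, and 0.43, edgeR adjusted p = 0.0184).

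*Erbb2*, the gene of the partner without a ligand, moved in the same direction. Its level was 52.9 and 53.9 CPM in isthmus, 66.0 and 65.8 CPM in pre-pit, and 70.0 and 67.7 CPM in mature pit cells, with no overlap between isthmus pools and those of pit cells. The difference was 0.30 ± 0.08 on the log2 scale in pre-pit cells (edgeR adjusted p = 0.0156) and 0.37 ± 0.09 in mature pit cells (edgeR adjusted p = 0.00657). *Erbb3* stood at 73.5 and 79.9 CPM in isthmus, 90.7 and 89.5 CPM in pre-pit, and 89.0 and 102 CPM in mature pit cells. The pools again did not overlap. *Erbb3* passed the threshold in mature pit cells (0.32 ± 0.11, edgeR adjusted p = 0.0370) and not in pre-pit cells (0.23 ± 0.10, edgeR adjusted p = 0.118). The calls of both genes were lost with no filter on low counts, *Erbb2* at 0.23 in pre-pit (edgeR adjusted p = 0.177) and 0.28 in mature pit cells (edgeR adjusted p = 0.0935) and *Erbb3* at 0.24 in mature pit cells (edgeR adjusted p = 0.158). Without cluster 11 they were kept, *Erbb2* at 0.33 and 0.39 and *Erbb3* at 0.38. *Adam17* gave 44.6 and 45.1 CPM in isthmus, 44.1 and 42.1 CPM in pre-pit, and 45.0 and 39.6 CPM in mature pit cells. Its differences from isthmus were -0.06 ± 0.10 and -0.09 ± 0.12, and neither passed the threshold.

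**Figure D1:**
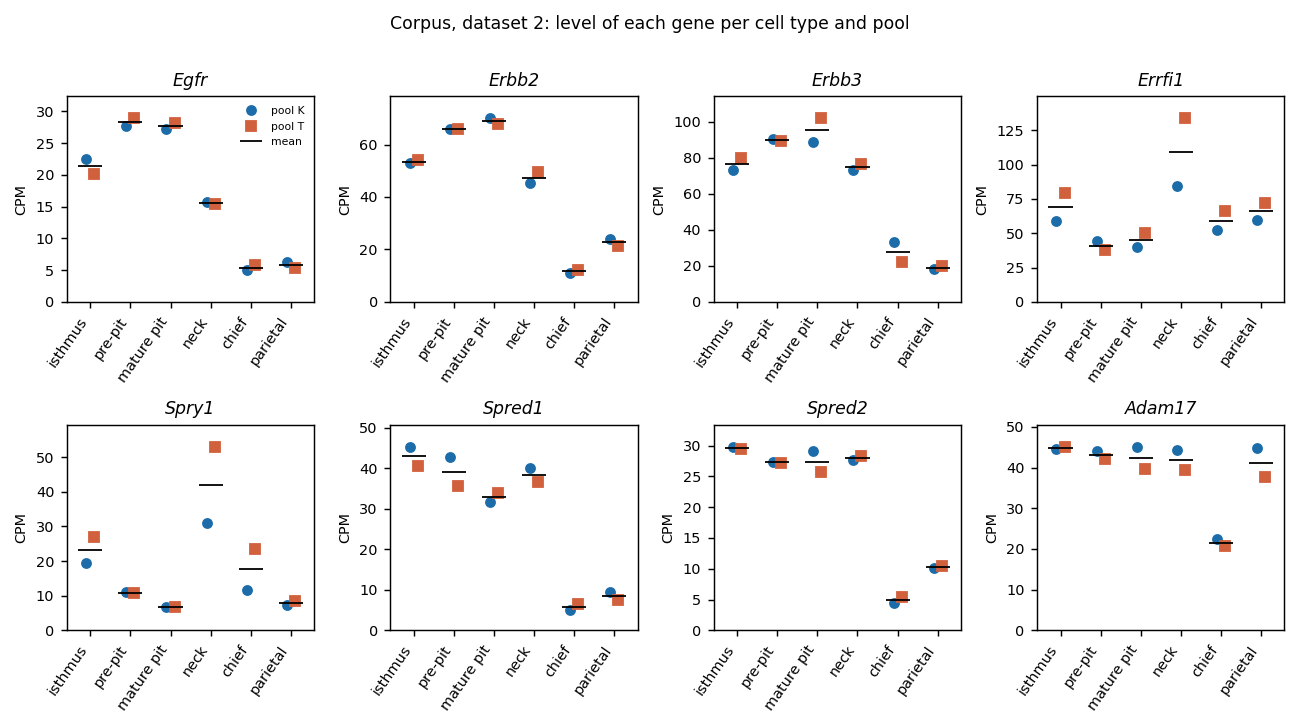
Level of 8 genes in CPM (vertical axis, from 0) in the 6 corpus epithelial types of dataset 2, with pool K as circles, pool T as squares and the mean of both as a line. *Egfr*, *Erbb2* and *Erbb3* are highest in pre-pit and mature pit cells, whereas *Errfi1* and *Spry1* are highest in neck cells, where pool T lies above pool K (53.0 against 30.9 CPM for *Spry1*).

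*Spry1* fell along the same path. Isthmus cells held 19.4 and 26.8 CPM, pre-pit cells 11 and 10.7 CPM, and mature pit cells 6.81 and 6.77 CPM. The 3 types did not overlap. *Spry1* was 2.14-fold lower in pre-pit than in isthmus cells (log2 fold change -1.10 ± 0.30, edgeR adjusted p = 0.0142) and 3.41-fold lower in mature pit cells (-1.77 ± 0.41, edgeR adjusted p = 0.00370).

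*Errfi1* stood at 59.0 and 79.6 CPM in isthmus cells, against 44.1 and 37.5 CPM in pre-pit and 40.0 and 49.9 CPM in mature pit cells. Both isthmus pools were higher, although pool K exceeded the highest pit value by less than the isthmus pools differed. The difference was -0.77 ± 0.22 in pre-pit cells (edgeR adjusted p = 0.0171) and -0.61 ± 0.24 in mature pit cells (edgeR adjusted p = 0.0602), and with the pool as a replicate block the latter gave -0.62 (edgeR adjusted p = 0.00439). With no filter on low counts it gave -0.70 (edgeR adjusted p = 6.38e-07). Similar differences thus came with very different p-values, and whether *Errfi1* was called in mature pit cells depended on the fit. Without cluster 11 the isthmus difference of *Errfi1* to pre-pit cells was -0.60 and lost its call (edgeR adjusted p = 0.0543), while that of *Spry1* was -0.98 and kept it (edgeR adjusted p = 0.0252). The dissociation list fell with both genes: 13 of its 14 genes were lower in pre-pit than in isthmus cells, with a median log2 fold change of -2.16, against 0.00 over all genes tested. Its part in the differences of *Errfi1* and *Spry1* was not tested.

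*Spred1* stood at 45.4 and 40.6 CPM in isthmus, 42.8 and 35.7 CPM in pre-pit, and 31.8 and 33.9 CPM in mature pit cells. Isthmus and pre-pit pools overlapped, and mature pit pools lay below both. The difference of mature pit from isthmus cells was -0.38 ± 0.14 (edgeR adjusted p = 0.0407), and -0.33 with another scaling (RLE), where it lost its call (edgeR adjusted p = 0.0742). *Spred2* stayed between 25.7 and 29.8 CPM in all 3 types and was not called in either step. Of the 8 genes that passed the filter on low counts, 4 were called between pre-pit and isthmus cells, where 27.8% of 13894 genes were called, and 5 between mature pit and isthmus cells, where 38% were. The median log2 fold change of the 8 was -0.09 in the first comparison and -0.11 in the second, against 0.00 and -0.07 over all genes tested. Between mature pit and pre-pit cells edgeR called 0 of the 8 (0 at an unadjusted p under 0.05, and 0 by DESeq2), where 10.4% of all genes were called. The largest difference there was that of *Spry1*, -0.67 ± 0.50. Between isthmus cells and either pit type, all calls of the 8 were lost with pool T left out and some with pool K left out. Each compared type then rested on 1 sum, and fewer of all genes were called as well. *Egfr* was 0.30 higher in pre-pit than in isthmus cells without pool T and 0.53 higher without pool K.

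**Figure D2:**
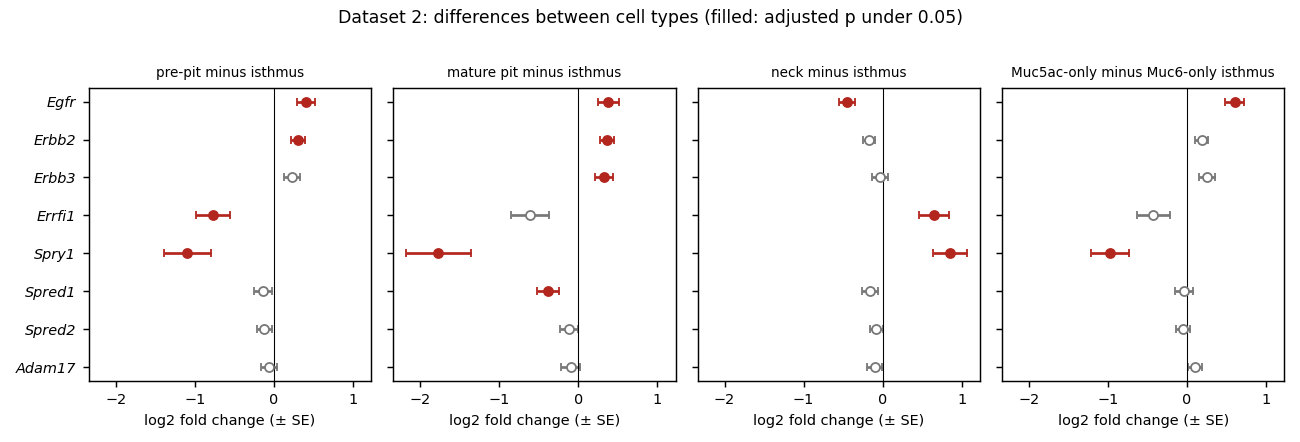
Log2 fold change of each gene (horizontal axis, bars show ± 1 SE) in 4 comparisons of dataset 2, with filled points for an edgeR adjusted p under 0.05. *Egfr* is higher and *Spry1* lower in pre-pit, mature pit and *Muc5ac*-only isthmus cells (*Egfr* 0.41, 0.38 and 0.60), and neck cells show the opposite signs (*Egfr* -0.45, *Spry1* 0.85).

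Genes of the other pathway lists were also called between pre-pit and isthmus cells, where 27.8% of all genes were called. Of 5 ligand genes tested, *Tgfa*, which encodes TGFα, rose (0.53 ± 0.12, edgeR adjusted p = 0.00473) and *Hbegf* fell (-1.69 ± 0.48, edgeR adjusted p = 0.0194), with a list median of -0.09. Of 16 other feedback regulators, 2 rose and 3 fell (median -0.08). The fall was led by *Lrig1*, a membrane protein that promotes the loss of the receptors (-1.34 ± 0.12), and by *Dusp6*, a phosphatase of ERK (-1.17 ± 0.19), and *Spry2* fell by 0.51 on the log2 scale. The genes that rose were the ubiquitin ligase genes *Cblb* (0.67 ± 0.14) and *Cblc* (0.42 ± 0.10). Of 8 shedding genes, the protease genes *Adam10* (0.50 ± 0.09) and *Adam9* (0.30 ± 0.07) rose and none fell (median 0.08), and of 17 adaptors and kinases 4 rose, *Map2k1* first (0.42 ± 0.09), and none fell (median 0.06). Of 10 genes whose transcription follows ERK, 6 fell (median -1.12), led by *Fos* and *Egr1*, which the dissociation list also holds, and *Etv5* (-1.07 ± 0.23).

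In mature pit against isthmus cells *Tgfa* (1.27 ± 0.12) and *Areg* (2.07 ± 0.60) rose and *Egf* fell (-6.20 ± 1.95), with a ligand median of 0.14. The SE of *Egf* was large, and DESeq2 called only 1 of the 5 ligand genes tested. The regulators *Lrig1* (-1.67 ± 0.15), *Spry2* (-0.87 ± 0.17) and *Dusp6* (-1.09 ± 0.23) fell with 1 other, and *Cblc*, *Cblb* and *Cbl* rose (3 of 16 up and 4 down, median -0.45). Shedding genes gave 4 up and 0 down of 8 (median 0.30), adaptors and kinases 5 up and 1 down of 17 (median 0.19), ERK-response genes 1 up and 4 down of 10 (median -0.43) and the dissociation list 0 up and 13 down of 14 (median -1.78). Of all genes, 38% were called in this comparison. Between mature pit and pre-pit cells *Tgfa* (0.74 ± 0.13), *Areg* (2.67 ± 0.72) and *Map2k1* (0.60 ± 0.10) rose, and no other gene of the 6 lists was called by edgeR. By DESeq2, 1 ligand gene, 2 adaptors and kinases, 1 shedding gene and 1 ERK-response gene were called there.

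Isthmus cells themselves differed in *Egfr* and *Spry1* by the mucin they carried. Cells counted as *Muc5ac*-only (580) or *Muc6*-only (423) held that mucin alone above the 95th percentile of parietal cells, and the classes mark isthmus cells with pit-like or neck-like mucin. *Egfr* was at 27.6 and 26.1 CPM in *Muc5ac*-only cells and at 20 and 15.7 CPM in *Muc6*-only cells. The pools of the classes did not overlap, and *Egfr* was 1.52-fold higher in *Muc5ac*-only cells (0.60 ± 0.12, edgeR adjusted p = 0.00134). *Spry1* was at 15.2 and 20.5 CPM against 28.6 and 41.3 CPM, again with no overlap. It was 1.96-fold lower in *Muc5ac*-only cells (-0.97 ± 0.24, edgeR adjusted p = 0.00705).

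*Errfi1* gave 55.8 and 74.9 CPM in *Muc5ac*-only cells and 73.0 and 102 CPM in *Muc6*-only cells, so that the pools overlapped while each pool was lower in *Muc5ac*-only cells. Without a block 2 of the 8 genes were called, where 29.4% of 13229 genes were, and the median log2 fold change of the 8 was 0.03 against -0.01 over all genes. With the pool as a replicate block 5 of the 8 were called, and the share of all genes called rose as well, to 38.2%. The added calls were *Erbb2* (0.19, edgeR adjusted p = 0.0372), *Erbb3* (0.25, edgeR adjusted p = 0.00752) and *Errfi1* (-0.42, edgeR adjusted p = 0.00344). Without pool T no call was kept, where each class rested on 1 sum and fewer of all genes were called as well. *Egfr* was then 0.48 higher and *Spry1* 0.89 lower. The summed dissociation list was at 4832 and 7170 CPM in *Muc5ac*-only cells and at 5667 and 11030 CPM in *Muc6*-only cells. None of its 14 genes was called by edgeR (3 at an unadjusted p under 0.05, 0 by DESeq2), with a median of -0.48.

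The ligand genes *Btc* (0.79 ± 0.13) and *Tgfa* (0.64 ± 0.12) were higher in *Muc5ac*-only cells (2 of 5 up, median 0.64). Between these classes 29.4% of all genes were called. The regulators *Lrig1* (-1.28 ± 0.11), *Socs5* (-0.94 ± 0.16) and *Dusp6* (-0.80 ± 0.14) were lower, and *Cblc*, *Ptpn1* and *Cblb* were higher (3 of 16 up and 4 down, median -0.13). *Furin*, a protease that matures precursor proteins, was lower (-1.70 ± 0.25), and *Adam10* and *Frmd8* were higher (2 of 7 shedding genes up and 1 down, median 0.09). Of the ERK-response genes *Phlda1* was higher (1.25 ± 0.22) and *Etv5* (-1.08 ± 0.19) and *Etv4* (-1.15 ± 0.28) lower (median -0.06), and 5 of 17 adaptors and kinases were higher, *Map2k1* and *Hras* among them (median 0.13).

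In neck cells *Egfr* was lower than in isthmus cells, and *Errfi1* and *Spry1* were higher. *Egfr* was at 15.7 and 15.5 CPM, below both isthmus pools (-0.45 ± 0.10, edgeR adjusted p = 0.00276). *Errfi1* was at 84.5 and 134 CPM, above both isthmus pools (0.65 ± 0.19, edgeR adjusted p = 0.0100), and *Spry1* at 30.9 and 53.0 CPM (0.85 ± 0.22, edgeR adjusted p = 0.00475). Both inhibitors were highest in cluster 0, which held 135 neck cells of pool K and 336 of pool T. There *Errfi1* was at 167 and 195 CPM and *Spry1* at 57.3 and 79.1 CPM, whereas neck clusters 2, 7 and 12 held 56.2 to 87.1 CPM of *Errfi1* and 22.8 to 28.1 CPM of *Spry1*. With cluster 0 left out, *Errfi1* was 0.16 lower in neck than in isthmus cells (-0.16, edgeR adjusted p = 0.342) and *Spry1* did not differ past the threshold (0.01, edgeR adjusted p = 0.982). *Egfr* kept its difference without cluster 0 (-0.44, edgeR adjusted p = 0.00358), and *Erbb2* (-0.21, edgeR adjusted p = 0.0349) and *Spred2* (-0.22, edgeR adjusted p = 0.0437) were then called lower. Without pool K the *Egfr* difference was -0.40 and was not called (edgeR adjusted p = 0.0875). In all, 3 of the 8 genes were called between neck and isthmus cells, where 50.7% of all genes were (median -0.09 against 0.06). Without cluster 11 the same 3 were called, *Egfr* at -0.40, *Errfi1* at 0.83 and *Spry1* at 0.97.

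Of the lists, *Egf* was higher in neck cells (1.22 ± 0.27) and *Btc* (-1.12 ± 0.11) and *Tgfa* (-0.90 ± 0.11) lower (ligand median -0.90). Between neck and isthmus cells 50.7% of all genes were called. *Socs5* (1.39 ± 0.12), *Lrig1* and *Cblb* led 6 regulators that were higher against 1 lower (median 0.24), and *Furin* (4.60 ± 0.22) led 3 shedding genes that were higher against 2 lower (median 0.15). Adaptors and kinases split 4 and 4 of 17 (median -0.11), and 2 ERK-response genes, *Phlda1* and *Myc*, were lower (median -0.27). Only *Btg2* (1.19 ± 0.30) and *Nr4a1* (1.19 ± 0.42) of the dissociation list were called higher (median 0.62).

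Chief and parietal cells, which secrete digestive enzymes and acid, held the lowest receptor levels of the corpus epithelium. *Egfr* was at 5.03 and 5.78 CPM in chief cells (9 and 15 UMIs) and at 6.35 and 5.31 CPM in parietal cells, and these pools overlapped. Against isthmus cells, parietal cells were lower in *Egfr* (-1.86 ± 0.12), *Erbb2* (-1.22 ± 0.08), *Erbb3* (-2.01 ± 0.11), *Spry1* (-1.54 ± 0.25), *Spred1* (-2.33 ± 0.12) and *Spred2* (-1.53 ± 0.09), and edgeR adjusted p did not exceed 8.62e-05 in these 6. *Errfi1* (59.8 and 71.9 CPM) and *Adam17* (44.7 and 37.7 CPM) of parietal cells overlapped the isthmus pools, with differences of -0.08 ± 0.19 and -0.12 ± 0.09. These 6 lower genes of 8 compare with 71.8% of all genes called in either direction and 36.7% called lower, and the same 6 were called without cluster 11. Within parietal cells *Errfi1* was at 42.9 and 52.5 CPM in cluster 1 and at 104 and 105 CPM in cluster 8, where the dissociation list was at 6728 and 4930 CPM against 2345 and 3245 CPM in cluster 1.

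Chief cells were lower than neck cells in all 8 genes tested, where 38.6% of all genes were called and 19.9% were lower (median -1.49 against -0.07). *Spred1* (5.03 and 6.55 CPM against 40.1 and 36.6 CPM, log2 fold change -2.69 ± 0.22) and *Spred2* (-2.48 ± 0.18) showed the largest differences and *Errfi1* (-0.87 ± 0.23) the smallest. Without cluster 0, *Errfi1* (-0.04, edgeR adjusted p = 0.890) and *Spry1* (-0.31, edgeR adjusted p = 0.350) were no longer called, and without pool T *Errfi1* was not (-0.74, edgeR adjusted p = 0.0687). *Egf* was higher in chief than in neck cells (4.90 ± 0.22) and *Tgfa* lower (-1.67 ± 0.26), and 10 of 16 other feedback regulators were lower, *Cblc* first (-2.14 ± 0.18), with none higher. The other lists of this comparison gave 3 up and 3 down of 17 adaptors and kinases (median 0.06), 2 up and 4 down of 8 shedding genes (median -0.76), 1 up and 5 down of 10 ERK-response genes (median -1.99) and 0 up and 1 down of 14 dissociation genes (median 0.05). For parietal against isthmus cells they gave 1 up and 4 down of 5 ligands (median -1.34), 9 and 4 of 16 regulators (0.39), 10 and 4 of 17 adaptors and kinases (0.58), 4 and 2 of 8 shedding genes (0.12), 1 and 9 of 10 ERK-response genes (-1.64), and 0 and 7 of 14 dissociation genes (-0.63). Between parietal and isthmus cells 71.8% of all genes were called. *Dusp6* stood out among the parietal regulators, at 3.62 ± 0.12 above isthmus cells.

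Cluster 11 differed from the other isthmus clusters in most of the genes. *Errfi1* was at 134 and 155 CPM there, above the 52.6 to 83.3 CPM of clusters 3, 5, 6 and 9 (1.10 ± 0.13, edgeR adjusted p = 4.95e-07). *Spry1* was at 38.3 and 44.5 CPM, against 15.9 to 28.7 CPM (0.84 ± 0.19, edgeR adjusted p = 0.00145). The receptor genes *Erbb3* (0.44 ± 0.08), *Egfr* (0.43 ± 0.13) and *Erbb2* (0.22 ± 0.08) and the inhibitor gene *Spred2* (0.27 ± 0.10) were higher too, so that 6 of 8 were called, all higher, where 29.4% of 12922 genes were called and 14.6% were higher (median 0.35 against 0.03). DESeq2 called 4 of the 8. With 1 pool left out the calls of *Errfi1*, *Spry1* and *Erbb3* held in both cases and others were lost. Each cluster compared then rested on 1 sum, and fewer of all genes were called as well. Of the dissociation list 12 of 14 genes were higher and none lower in cluster 11 (median 1.30), with a summed level of 14870 and 13271 CPM against 3471 to 9366 CPM. The other lists had 7 of 10 ERK-response genes higher (median 0.91), *Hbegf* (1.14 ± 0.23) and *Areg* (1.58 ± 0.42) of 5 ligands (median 0.21), 5 of 16 regulators led by *Dusp6* (median 0.29), *Rhbdf2* and *Rhbdf1* of 8 shedding genes (median 0.24), and 2 up and 3 down of 17 adaptors and kinases (median -0.05). Of the 5 ligands DESeq2 called 1.

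Over the 14 epithelial clusters of dataset 2, log2 CPM of *Errfi1* and of *Spry1* went with that of the dissociation list, with Pearson's r of 0.775 and 0.580, whereas *Egfr* (-0.0879), *Erbb2* (-0.178), *Erbb3* (0.00370), *Spred1* (-0.0757), *Spred2* (-0.0511) and *Adam17* (-0.234) gave values nearer 0. The 14 points come from the same 2 pools and share their libraries, and genes of the list differ between types, so these values are descriptions. Pool T stood above pool K in the dissociation list of each isthmus cluster other than 11 (7373 to 9366 CPM against 3471 to 4612 CPM), and in the same clusters *Errfi1* was at 75.0 to 83.3 CPM in pool T and 52.6 to 65.4 CPM in pool K. The list shares *Fos* and *Egr1* with the ERK-response list, and all cells were dissociated. Dissociation and ERK activity therefore cannot be told apart by it, and the part of either in these levels was not tested.

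**Figure D3:**
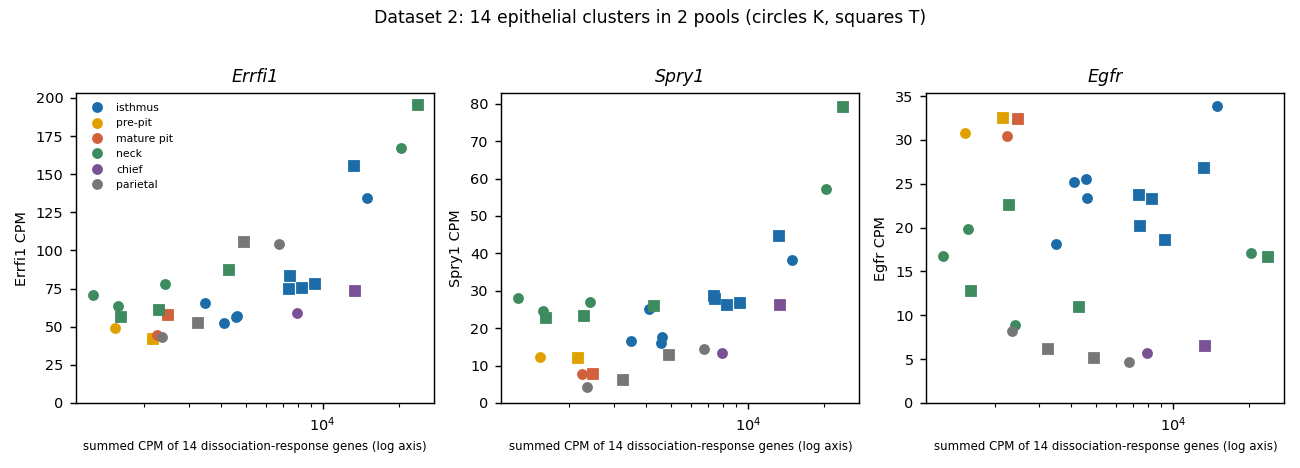
Level of *Errfi1*, *Spry1* and *Egfr* in CPM (vertical axis, from 0) against the summed CPM of 14 dissociation-response genes (horizontal log axis) in 14 epithelial clusters of dataset 2, with circles for pool K, squares for pool T and colours for the cell type. The 2 neck points at the right are cluster 0, with *Errfi1* at 167 and 195 CPM, and the isthmus points next to them are cluster 11.

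Dataset 1 held pit cells of both corpus and antrum, and among the 7 epithelial types tested *Egfr* was highest in antrum mature pit cells. The cluster called antrum pre-pit held all 4 pit markers at 5-fold over the median cluster, but its leading genes were *Zg16*, *Muc2*, *Tff3* and *Fcgbp*, known from intestinal goblet cells, and their part in its differences was not tested. *Egfr* stood at 65.9 and 49.7 CPM in antrum mature pit cells and at 31.9 and 24.5 CPM in antrum pre-pit cells. The pools did not overlap, and the difference was 2.04-fold (1.03 ± 0.26, edgeR adjusted p = 0.0136). In the corpus the same step gave 41.6 and 34.2 CPM in mature pit and 36.1 and 25.7 CPM in pre-pit cells, which overlapped (0.26 ± 0.27, edgeR adjusted p = 0.585). The difference between the steps in antrum and corpus was itself 0.77 ± 0.38 and was not called (edgeR adjusted p = 0.832), so the rise was not shown to differ between the regions. Antrum and corpus mature pit cells differed in *Egfr* by 0.63 ± 0.24 (edgeR adjusted p = 0.179), although both antrum pools lay above both corpus pools. The antrum difference of *Egfr* rested on 49 mature pit and 32 pre-pit cells, was 1.01 without pool tube1 (edgeR adjusted p = 0.255) and 1.05 without pool tube2 (edgeR adjusted p = 0.0778), and gave 1.06 with DESeq2 (adjusted p = 0.135).

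Among the 4 pit types *Spred1* was lowest in the mature pit cells of the corpus. Corpus mature pit cells held 18.2 and 25.6 CPM, corpus pre-pit cells 46.7 and 35.0 CPM, antrum mature pit cells 45.4 and 45.7 CPM and antrum pre-pit cells 42.6 and 67.3 CPM. Corpus mature pit pools lay below all others. The difference of mature pit from pre-pit cells was -0.94 ± 0.29 in the corpus (edgeR adjusted p = 0.0392) and -0.22 ± 0.24 in the antrum (edgeR adjusted p = 0.631), and antrum exceeded corpus mature pit cells by 1.06 ± 0.28 (edgeR adjusted p = 0.0379). The interaction was 0.72 ± 0.38 (edgeR adjusted p = 0.840). In dataset 2 the corpus step of *Spred1* was smaller and not called (-0.25 ± 0.15, edgeR adjusted p = 0.351). It rested there on 121 mature pit and 291 pre-pit cells, against 26 and 46 corpus cells in dataset 1. Without pool tube1 the corpus step of *Spred1* was -0.45 and was not called (edgeR adjusted p = 0.727), and the region difference of mature pit cells was not called without either pool (0.81 without tube1, 1.30 without tube2) or with DESeq2 (1.06, adjusted p = 0.319).

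*Spry1* was at 15.9 and 22.0 CPM in the isthmus-like cells of dataset 1 and at 7.79 and 9.34 CPM in corpus pre-pit cells, with no overlap (-1.18 ± 0.34, edgeR adjusted p = 0.0193). This difference was -1.25 without pool tube1 and -1.02 without pool tube2, neither called, and -1.20 with DESeq2 (adjusted p = 0.273). *Errfi1* was at 42.0 and 73.5 CPM in isthmus-like and 37.5 and 31.5 CPM in corpus pre-pit cells (-0.74 ± 0.32, edgeR adjusted p = 0.114). *Egfr* (19.1 and 24.5 CPM against 36.1 and 25.7 CPM) and *Erbb2* (55.4 and 48.0 CPM against 76.5 and 64.2 CPM) were higher in both pre-pit pools than in the isthmus-like pools, by 0.53 ± 0.25 and 0.47 ± 0.19, and were not called. The signs of these 4 differences were those of dataset 2. Of the dissociation list 12 of 14 genes were lower in corpus pre-pit cells and none higher (median -2.33).

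**Figure D4:**
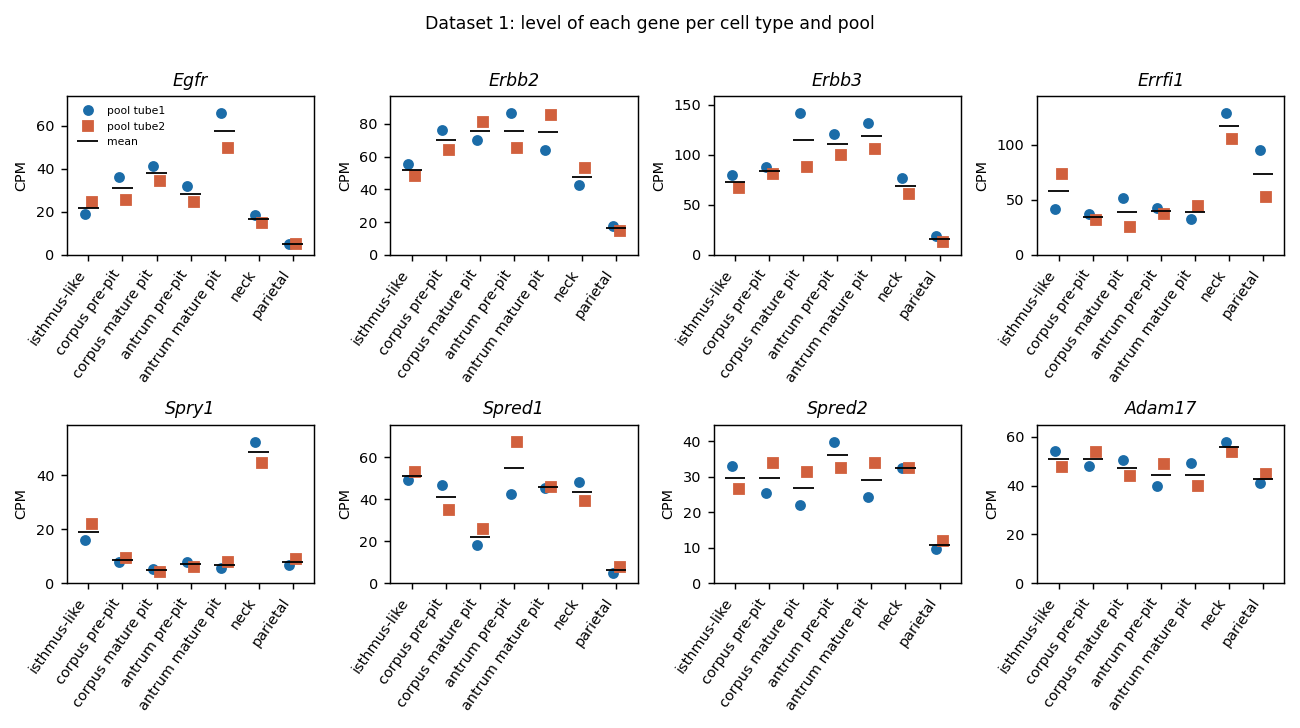
Level of 8 genes in CPM (vertical axis, from 0) in 7 cell types of dataset 1, with pool tube1 as circles, pool tube2 as squares and the mean of both as a line. *Egfr* is highest in antrum mature pit cells (65.9 and 49.7 CPM), *Spred1* is lower in corpus mature pit cells than in the other pit cells, and *Errfi1* and *Spry1* are highest in neck cells.

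Dataset 1 neck cells were higher than isthmus-like cells in *Errfi1* (129 and 106 CPM, 0.98 ± 0.27, edgeR adjusted p = 0.0108) and *Spry1* (52.4 and 44.5 CPM, 1.32 ± 0.26, edgeR adjusted p = 0.000832), and both neck pools lay above both isthmus-like pools. The dissociation list was at 7923 and 8540 CPM in these neck cells and at 2824 and 4199 CPM in the isthmus-like cells, with 12 of 14 genes higher and none lower (median 1.37). Without pool tube1 neither *Errfi1* (0.52, edgeR adjusted p = 0.287) nor *Spry1* (1.01, edgeR adjusted p = 0.0614) was called, and DESeq2 called neither. Parietal cells were lower than isthmus-like cells in the same 6 genes as in dataset 2, from *Spry1* (-1.21 ± 0.32) to *Spred1* (-2.92 ± 0.28), and *Errfi1* differed by 0.25 ± 0.27. Without pool tube2 *Errfi1* was called higher in parietal cells (1.18, edgeR adjusted p = 0.00397) and *Spry1* was not called (-1.21, edgeR adjusted p = 0.0848).

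The number of the 8 tested genes called was 1 for the antrum step (14% of 10229 genes called), 1 for the corpus step (12.9%), 1 for corpus pre-pit against isthmus-like cells (20.4%), 1 for antrum against corpus mature pit cells (4.29%), 2 for neck cells (29.3%, and 13.1% higher) and 6 for parietal cells (60.3%, and 32% lower). Antrum and corpus pre-pit cells differed in 0 of the 8 by edgeR (0 at an unadjusted p under 0.05, 0 by DESeq2), where 5.07% of all genes were called. The interaction of region and step gave 0 by edgeR (0 at an unadjusted p under 0.05, 0 by DESeq2), where 0.0293% of all genes were called. Medians of the 8 genes lay between -0.08 and 0.16 in these comparisons apart from parietal cells (-1.55), and those of all genes between -0.07 and 0.03.

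In the antrum step, ligand genes rose with *Egfr*: *Areg* (1.99 ± 0.31), *Tgfa* (0.92 ± 0.18) and *Btc* (0.89 ± 0.29) were 3 of 4 tested (median 0.95). Of 16 adaptors and kinases *Map2k1* (0.88 ± 0.15) and *Mapk3* (0.46 ± 0.15) rose (median 0.09), and of 9 ERK-response genes *Phlda1*, *Fosl1* and *Fos* rose and *Myc* (-3.08 ± 0.45) and *Etv5* fell (median 0.90). The corpus step had *Areg* (2.58 ± 0.37) and *Tgfa* (0.82 ± 0.17) up (ligand median 0.79), *Mapk3* up (median -0.07), *Adam10* up (0.73 ± 0.15, shedding median 0.18), and *Myc* (-3.92 ± 0.41), *Ccnd1* and *Etv5* down (ERK-response median 0.12). Of the 4 ligands tested, DESeq2 called 2 in the antrum step and 1 in the corpus step. *Btc* (1.31 ± 0.29, ligand median 1.07), *Map2k1* (0.52 ± 0.14, adaptor and kinase median 0.03) and *Phlda1* (1.18 ± 0.21, ERK-response median 0.72) were higher in antrum than in corpus mature pit cells, as was *Fos* (1.32 ± 0.29). In that comparison DESeq2 called 0 ligands and 0 adaptors and kinases. Antrum pre-pit cells were lower than corpus pre-pit cells in *Myc* (-1.03 ± 0.28), where DESeq2 called 0 of the 9 ERK-response genes. Corpus pre-pit cells exceeded isthmus-like cells in *Tgfa* (0.88 ± 0.18), *Cbl* (0.99 ± 0.26), *Adam9* (0.55 ± 0.13), *Adam10* (0.52 ± 0.15) and *Map2k1* (0.71 ± 0.15), and were lower in *Lrig1* (-1.51 ± 0.22). Of 9 ERK-response genes 0 were higher and 3 lower there (median 0.08). List medians were -0.14 for ligands, 0.04 for shedding genes, 0.16 for adaptors and kinases and -0.27 for regulators, and 20.4% of all genes were called. In this comparison DESeq2 called 0 ligands, 0 shedding genes, 1 regulator, 1 gene of the adaptors and kinases and 3 ERK-response genes.

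List counts in dataset 1 were smaller for the regulators and the shedding genes. Of 14 other feedback regulators none was called by edgeR in the antrum step, the corpus step, antrum against corpus mature pit cells or antrum against corpus pre-pit cells (2, 4, 2 and 0 at an unadjusted p under 0.05, 0 by DESeq2 in each), and of 7 shedding genes none in the antrum step or between the regions (2 in the antrum step, 1 in mature pit and 2 in pre-pit cells at an unadjusted p under 0.05, 0 by DESeq2). In neck against isthmus-like cells *Lrig1* (1.5 ± 0.16), *Dusp5* (1.86 ± 0.36), *Dusp6* (1.60 ± 0.35) and 1 further regulator were higher. Of the ligands *Hbegf* was higher (1.70 ± 0.39) and *Tgfa*, *Btc* and *Areg* were lower. Of 7 shedding genes *Furin* was higher (4.82 ± 0.52) and 2 were lower (median -0.32). Adaptors and kinases gave 1 up and 3 down of 16 (median -0.18), and ERK-response genes 3 up and 1 down of 9 (median 0.14). Of all genes, 29.3% were called there. Parietal against isthmus-like cells gave 7 up and 1 down of 14 regulators, *Dusp6* first (3.97 ± 0.26), 7 and 3 of 16 adaptors and kinases, 0 and 3 of 4 ligands, 2 and 3 of 7 shedding genes, 1 and 8 of 9 ERK-response genes, and 1 and 6 of 14 dissociation genes. The interaction of region and step called none of the genes of the 6 lists by edgeR (0 to 2 a list at an unadjusted p under 0.05), and none by DESeq2.

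Outside the main epithelial types the genes separated by cell class. These clusters are small, are named X-like from fixed markers, and their values are given without a test. Endothelial-like cells held *Spred1* at 334 and 248 CPM in dataset 2 (9 cells) and at 191 and 289 CPM in dataset 1 (15 cells), with *Egfr* at 0 UMIs in both. Stromal-like cells of dataset 1 held *Egfr* at 96.8 and 76.1 CPM (19 UMIs in 15 cells) and *Spry1* at 60.5 and 125 CPM, the highest *Egfr* levels among the clusters of that dataset. Macrophage-like cells held *Adam17* at 141 and 101 CPM in dataset 2 and 117 and 112 CPM in dataset 1, with *Egfr* and *Erbb2* at 0 UMIs in both. Enterocyte-like cells of dataset 1 (70 cells) held *Erbb3* at 302 and 293 CPM and *Erbb2* at 99.6 and 124 CPM, while *Egfr* was at 9.64 and 3.80 CPM and *Spred1* at 6.43 and 1.27 CPM. ECL-like, D cell-like and X/A-like endocrine cells of dataset 2 had at most 2 UMIs of *Egfr* in both pools together. A cluster of dataset 1 led by hormone genes (*Gast*, *Ghrl* and *Sst*) held *Errfi1* at 371 and 107 CPM in 7 and 17 cells. Tuft-like cells held *Erbb3* at 64.0 and 146 CPM with 1 UMI of *Egfr*, in a cluster that also carries stromal and smooth muscle markers.

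**Figure D5:**
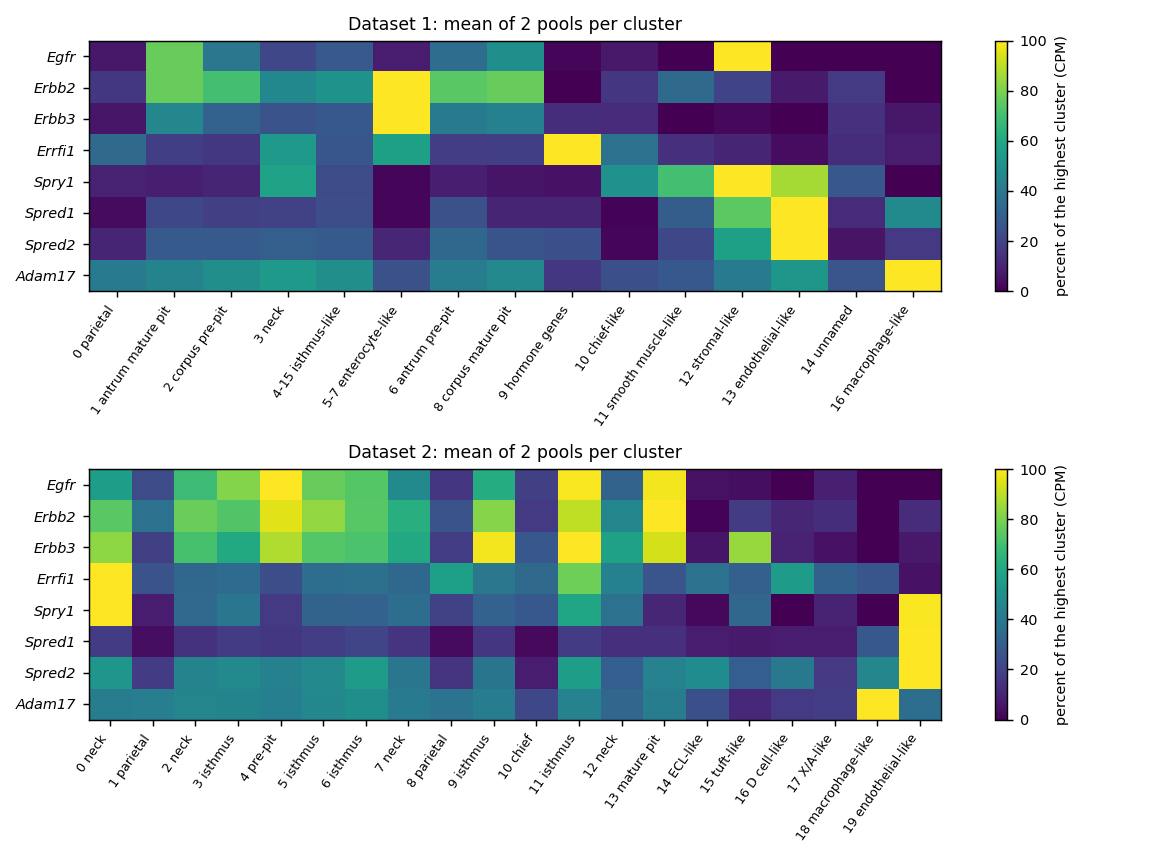
Mean CPM of 2 pools per cluster as a percent of the highest cluster of the same gene (colour), for 8 genes in rows and all clusters of dataset 1 (top) and dataset 2 (bottom) in columns. In dataset 2 *Egfr* and *Erbb2* are highest in clusters 4, 13 and 11, *Errfi1* in neck cluster 0, *Spred1* in endothelial-like and *Adam17* in macrophage-like cells. Colours compare clusters within a row, not genes with each other.

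*Erbb4* was close to absent from the counts. It had 3 UMIs in 3 of 3993 cells of dataset 2, all in parietal cells of pool T, and 2 UMIs in 2 of 491 cells of dataset 1 (1 neck and 1 enterocyte-like cell). It had 0 UMIs in isthmus, pre-pit, mature pit, neck and chief cells of dataset 2. A count of 3 UMIs over both pools would be 0.0451 CPM in isthmus and 0.290 CPM in pre-pit cells, so higher levels than these were not seen. The gene did not pass the filter on low counts and was not tested.

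Counted per cell, *Egfr* had a UMI in 61.2% and 59.3% of isthmus cells, 61.9% and 62.4% of pre-pit cells, 58.5% and 60.3% of mature pit cells and 33.2% and 33.3% of neck cells, at median depths of 22200 to 44629 UMIs. With each cell thinned to 10000 UMIs, which left out 0 to 5 shallower cells per type and pool, the shares were 24.9% and 21.9% in isthmus, 28.4% and 28.7% in pre-pit, 28% and 22.4% in mature pit, 18.2% and 17.7% in neck and 6.52% and 3.97% in parietal cells. The thinned shares of isthmus and mature pit cells overlap, while those of pre-pit cells lie above isthmus cells. Macrophage-like cells had a UMI of *Egfr* in 0 of 13 cells at a median of 9581 UMIs, too few cells to show absence. For *Spry1* the thinned shares were 20.1% and 29.5% in isthmus, 11.2% and 14.0% in pre-pit, 8% and 2.99% in mature pit and 29.1% and 36.1% in neck cells. They follow the order of the CPM. *Adam17* had a UMI in 87.3% and 84.1% of isthmus cells and in 92.3% of the macrophage-like cells (95% exact binomial interval 64.0% to 99.8%, counting error only).

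Across the 14 clusters *Egfr* was most like *Erbb2* among the genes studied here (Pearson's r of log2 CPM 0.947, and 0.931 over the 11 clusters without parietal and chief cells). *Errfi1* and *Spry1* went together (0.764, and 0.880 over the 11). *Egfr* and *Spry1* gave 0.229 over the 14 and -0.423 over the 11, so the sign depended on parietal and chief cells. *Spred1* and *Spred2* gave 0.965 and 0.716. Among 7037 genes with a mean of at least 20 CPM, the closest to *Egfr* were *2200002D01Rik*, *Sytl2* and *Ahnak* (each 0.975) and to *Erbb2* were *Tspan8* (0.978), *Armc10* and *Cttn*. The closest to *Erbb3* were *Foxq1* (0.982), *S100a11* and *Galnt6*, to *Errfi1* were *Clk1* (0.925), *Arl5b* and *Sertad2*, and to *Spry1* were *Gm12940* (0.943), *Trf* and *Ing2*. *Spred1* was closest to *Rasgrp1* (0.983), *Golm1* and *Kcnn4*, *Spred2* to *Nectin3* (0.988), *Rasgrp1* and *Plscr1*, and *Adam17* to *Hs3st1* (0.982), *Steap2* and *Sorbs3*. The values of these closest genes were computed only over the 14 clusters, parietal and chief cells included. The clusters share pools, libraries and depth, so no p is given.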

How the data were processed

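Single cells of 4 pools of 3 mice were sorted into 18 plates and sequenced with Quartz-Seq2. The authors demultiplexed with bcl2fastq 2.20.0.422, aligned with STAR to GRCm39 (Gencode M27), counted UMIs with Drop-seq tools, kept cells with at least 2500 detected genes and clustered them in Seurat. The deposited values are raw UMI counts per gene and cell, and the deposited cell annotation gives the cluster and the mitochondrial percent. Counts were summed per cell type and pool, with the study's cluster names except isthmus-like in dataset 1, which was set by markers. The sums were tested in edgeR 4.0.16 (R 4.3.3) with TMM scaling, filterByExpr, the quasi-likelihood test and Benjamini-Hochberg adjustment over all genes. Calls were made where the adjusted p lay under 0.05, and SE was taken as the absolute log2 fold change divided by the root of F. The 4 fits (cell types of each dataset, clusters and mucin classes of dataset 2) gave 16 comparisons. Lists of ligands, shedding genes, adaptors and kinases, other feedback regulators, ERK-response genes and dissociation genes were used, and up to 3 called genes per direction with the smallest adjusted p were named from each, some of which are not reported here. The genes and lists were chosen with earlier results of these data known. The alternatives were DESeq2 1.42.0, RLE scaling, no filter, the pool as a block, plates as units, at least 4000 genes per cell, 1 pool left out and other mucin thresholds, and, chosen after seeing the data, neck cells without cluster 0 and isthmus cells without cluster 11. Sums of one pool come from the same mice, so pools pair the types: deviations of same-pool types correlated with a median r of 0.132 over 15 pairs in dataset 2 and 0.0245 over 21 pairs in dataset 1. With 2 pools per dataset, p-values measure the spread between those pools. Cells of no named epithelial type were not tested.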

Additional observations from a re-analysis of the deposited data

Results flagged for a closer look

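Single plates were compared within a pool and cell type of dataset 2 (6 plates per pool, plain CPM of the cells of that type on a plate, without the TMM factor of the other levels). Of 81 groups of plates, 8 had a plate far from the others, where chance gives about 1 in 20 groups. In isthmus cells of pool T, 1 plate was lowest in *Egfr* at 20.4 CPM (25.2 to 27.8 CPM on the others) and highest in *Spred1* at 56.8 CPM (48.9 to 50.9 CPM). In neck cells of pool K, 1 plate was lowest in *Egfr* at 14.0 CPM (19.1 to 22.1 CPM) and 1 highest in *Spred2* at 42.6 CPM (30.7 to 34.7 CPM). In parietal cells 1 plate of pool K was highest in *Spry1* at 14.2 CPM (3.62 to 7.08 CPM). For *Errfi1*, 1 plate of pool T was highest in parietal cells at 99.7 CPM (51.1 to 66.4 CPM) and 1 in pre-pit cells at 64.2 CPM (32.0 to 41.1 CPM). *Adam17* was lowest on 1 plate of parietal cells of pool T at 28.8 CPM (33.6 to 35.9 CPM).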

How the results depend on the processing

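Of 128 values (8 genes in 16 comparisons) 46 were called. In alternatives that kept both pools, 285 of 309 repeats of a called value kept direction and call, 23 lost the call and 1 reversed, *Errfi1* in neck against isthmus cells without cluster 0 (-0.16). With 1 pool left out, 58 of 92 kept the call and 34 lost it, and the lone sum was then assumed to vary like those of the other types. Of 687 repeats of an uncalled value, 50 changed sign and 23 became called. Of the 8 genes DESeq2 called 0 in the antrum step (9.10% of all genes called by DESeq2), the corpus step (9.26%) and antrum against corpus mature pit cells (2.14%). It also called 0 of them in corpus pre-pit against isthmus-like cells (8.44%) and in dataset 1 neck cells (14.3%). There edgeR called 1, 1, 1, 1 and 2. DESeq2 called 4 of the 8 in cluster 11 (23.6% of all genes), 4 in mature pit against isthmus cells (35.6%) and 5 in dataset 1 parietal cells (41.6%). In these edgeR called 6, 5 and 6. Plates of a pool hold cells of the same mice and are not replicates, and the fits with plates as units enter the 309 repeats. Corpus pre-pit against isthmus-like cells gave 2 with no filter (9.44% of all genes called) and 2 with plates as units (27.6%), against 1 (20.4%). *Muc5ac*-only against *Muc6*-only cells gave 2 in the main fit, where 29.4% of all genes were called. They gave 4 with a threshold of 1 UMI (28.8% of all genes) and 4 with the 99th percentile (32.0%). Plates as units gave 5 (51.9%) and the replicate block 5 (38.2%). With no filter, mature pit against isthmus cells gave 3 (against 5), where 19.5% of all genes were called (against 38%). Pre-pit against isthmus cells gave 2 (against 4), where 13.7% were (against 27.8%). The calls lost were those of *Egfr* and *Erbb2* in both and *Erbb3* in mature pit cells. With either pool left out, calls were lost for pre-pit and for mature pit against isthmus cells and for cluster 11. The same held for the antrum step, antrum against corpus mature pit cells and corpus pre-pit against isthmus-like cells. For the mucin classes, the corpus step and dataset 1 neck cells, all calls were lost in at least 1 such fit. Compared types then rested on 1 sum each, and fewer of all genes were called too. Apart from the mucin classes and *Errfi1* in mature pit against isthmus cells, the replicate block changed no call. The cause of these changes was not tested. *Erbb4* did not pass the filter on low counts, and the antrum types hold 32 and 49 cells.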
